A study of Bos taurus with 16 samples.

Results

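A set of 29 bovine genes of cholesterol synthesis and sterol handling was followed across 12 single blastocysts and 4 bovine embryonic stem cell (bESC) libraries. Members were taken by gene name. Each of the 29 genes was found once in each of the 3 deposited tables, which list 38959, 37429 and 28303 genes. They comprise 8 genes of the mevalonate steps, 12 of the sterol steps, 5 that control the pathway and 4 of sterol uptake and export.

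The study asked how LY2955303 (LY), a small molecule inhibitor of the retinoic acid receptor RARγ, alters in vitro-produced bovine embryos and bESCs. In the first blastocyst table, 3 embryos cultured with 10 μM LY from the 2-cell stage (LY10) stand beside 3 embryos that received the DMSO vehicle (DMSO). The second blastocyst table holds 2 embryos given LY from the 2-cell stage (cell2_LY), 2 given LY from the 16-cell stage (cell16_LY) and 2 vehicle embryos (LY_DMSO), against which both LY groups were set, since the labels name no other vehicle in that table. The LY dose of cell2_LY and cell16_LY is not given in the labels. All embryos were wild type (WT), came from slaughterhouse ovaries by in vitro fertilization, were cultured with LIF, FGF2 and IGF1, and were collected whole on day 8 with 1 embryo per library. The bESC table holds 2 libraries with 10 μM LY for 3 days (bESC_LY) and 2 controls labelled by their culture medium (bESC_tifx), both numbered 2 and 3. The study's text names a DMSO control for the bESC treatment, and the labels do not say whether these 2 libraries had DMSO. These cells, also WT, grow on mouse embryonic fibroblast feeders in a medium with several kinase inhibitors, and the labels do not say whether the numbers stand for lines, cultures or passages.

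Cholesterol is built from acetyl-CoA. Cytosolic enzymes first form mevalonate and turn it into the farnesyl unit, which feeds the sterol branch as well as protein prenylation and ubiquinone, and enzymes of the endoplasmic reticulum then make squalene, close it into lanosterol and trim lanosterol to cholesterol. The transcription factor SREBP2, encoded by SREBF2, drives most of these genes. Its escort SCAP carries it to the Golgi for cleavage when membrane sterol is low, and the INSIG proteins hold both back when sterol is plentiful. SREBP1, from SREBF1, acts more on fatty acid genes. A blastocyst needs membrane for rapid division and for the epithelium of the trophectoderm.

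Levels are given as FPKM, fragments scaled to the length of the gene model and to library size, as the authors deposited them. Differences are log2 fold changes of normalized counts with their standard error (SE), from a limma fit across every gene whose normalized count averaged 10 or more. A gene was called when its unadjusted p was under 0.05 and its absolute log2 fold change was above 1, and Benjamini-Hochberg (BH) adjusted p-values over all tested genes are given beside it. The replicates are single embryos or libraries, so a p-value measures the spread between these samples. Overlap between groups is described gene by gene. The share of all genes without overlap was not counted, and a call itself favours such a separation. In whole embryos, fewer cells of a type and less RNA per cell cannot be told apart. The blastocyst libraries had between 7905768 and 17343140 reads on genes and the bESC libraries between 29055323 and 31230432.

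Defining markers matched the labels. The summed FPKM of 8 trophectoderm markers, among them CDX2 and GATA3, was between 2571 and 9539 in blastocysts and between 98.9 and 296 in bESCs, whereas that of 5 measured epiblast markers, among them NANOG and POU5F1, was between 175 and 726 in blastocysts and between 1950 and 2088 in bESCs. The 5 differ in 1 gene, since SOX2 is in the blastocyst sums only and TDGF1 in the bESC sums only. Summed cumulus markers, from the cells that surround the oocyte, were at most 4.30 FPKM in any blastocyst. In the bESC libraries the 6 fibroblast markers summed to between 68.9 and 70.6 FPKM, which differed little between bESC_LY and bESC_tifx.

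The members were expressed over a wide range of levels in blastocysts. MSMO1, the sterol C4-methyl oxidase, was the most abundant, with FPKM between 162 and 1273 across the 12 embryos. IDI1, which isomerizes isopentenyl diphosphate, lay between 124 and 741 FPKM. FDFT1, the squalene synthase that commits the farnesyl unit to sterols, lay between 53.0 and 382 FPKM. At the other end, SREBF2 lay between 0.719 and 7.46 FPKM and SREBF1 between 0.615 and 5.22. For C14 sterol reduction, LBR, which is also a protein of the inner nuclear membrane, had between 8.56 and 24.0 FPKM, above TM7SF2, the other enzyme of this step, in each embryo. TM7SF2 had 0 reads in DMSO_1, which allows a level of up to 0.133 FPKM by a limit of 3 reads that covers counting error only, and it reached 3.94 FPKM in DMSO_3.

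**Figure D1:**
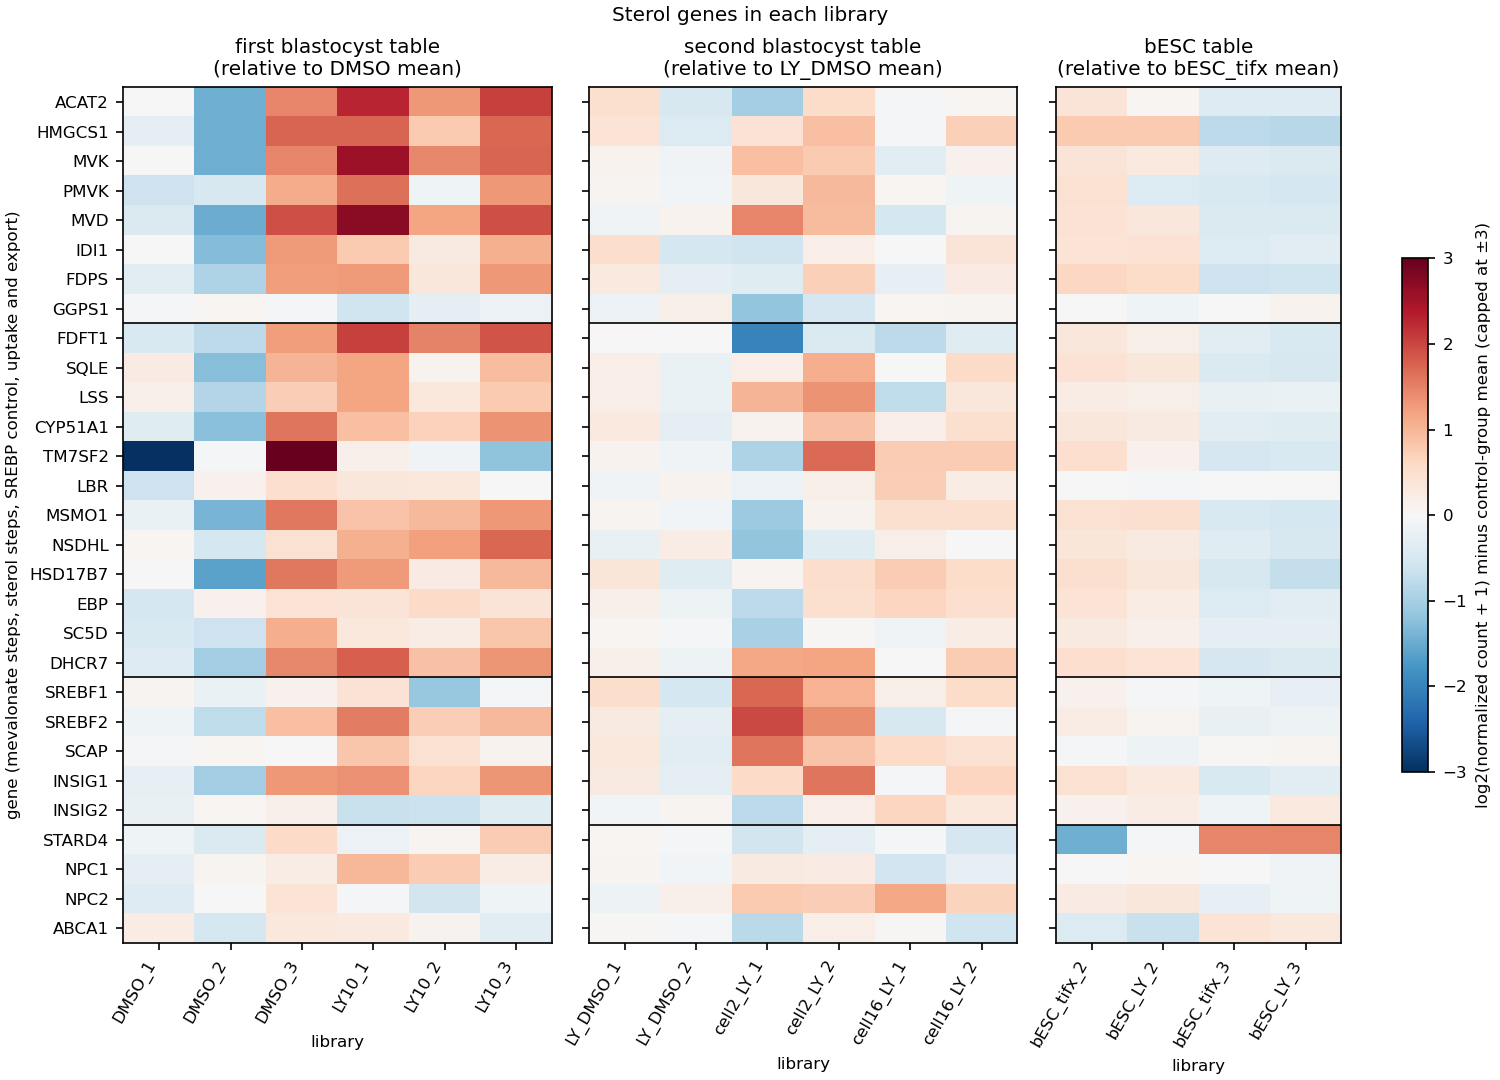
Each column is a library and each row a gene, in the order mevalonate steps, sterol steps, SREBP control, uptake and export. Colour is log2(normalized count + 1) minus the mean of the control group of that table, capped at 3 in either direction, and DMSO_3 is seen to stand with the LY10 libraries in most enzyme rows.

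In LY10 against DMSO, with LY from the 2-cell stage, 6 of 29 members were called higher and 0 lower. They were ACAT2, MVK, MVD, FDFT1, NSDHL and DHCR7, all enzymes, and their levels were between 2.52-fold (DHCR7) and 3.86-fold (MVD) those of DMSO on the normalized count scale. Among all 14249 tested genes, 6.2% were called higher and 8.51% lower, and under quantile normalization these shares were 7.54% and 6.17%. No member passed BH adjustment, where 0.014% of all genes did (2 genes), and 7 members had an unadjusted p under 0.05. The median log2 fold change was 0.76 over the 29 members and -0.05 over all genes, with 24 members above 0.

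The mevalonate steps had the highest median of the segments, 1.19, with 7 of 8 genes above 0 and 3 called. ACAT2, the cytosolic thiolase that joins acetyl-CoA units, was at 54.0, 19.8 and 150 FPKM in DMSO and 265, 134 and 227 in LY10. Its log2 fold change was 1.88 (SE 0.63, BH-adjusted p = 0.134), and DMSO_3 lay above LY10_2. MVK, mevalonate kinase, was at 4.48, 1.59 and 12.4 FPKM in DMSO and 26.7, 12.2 and 15.1 in LY10. Its log2 fold change of 1.92 (SE 0.66, BH-adjusted p = 0.143) came with groups that met only at DMSO_3 and LY10_2. MVD, which decarboxylates mevalonate diphosphate, was at 4.40, 2.09 and 23.0 FPKM in DMSO and 39.6, 13.7 and 23.1 in LY10, a log2 fold change of 1.95 (SE 0.79, BH-adjusted p = 0.189). The DMSO values again fell into a low pair and 1 embryo inside the LY10 range.

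Of the other mevalonate genes, HMGCS1, the HMG-CoA synthase, had a log2 fold change of 1.41 (SE 0.69, BH-adjusted p = 0.26). FDPS, which makes the farnesyl unit, was at 0.97 (SE 0.53, BH-adjusted p = 0.3), PMVK at 0.94 and IDI1 at 0.71. GGPS1 went the other way. This enzyme makes geranylgeranyl diphosphate, which leaves the sterol route for prenylation. It had 51.8, 55.2 and 51.2 FPKM in DMSO and 34.8, 42.8 and 46.3 in LY10, so the groups did not overlap, at a log2 fold change of -0.36 (SE 0.22, BH-adjusted p = 0.342).

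In the sterol steps 11 of 12 genes were above 0 and 3 were called, with a median of 0.80. FDFT1 was at 66.3, 53.0 and 219 FPKM in DMSO and 382, 256 and 336 in LY10. All LY10 embryos were above all DMSO embryos, and the log2 fold change was 1.81 (SE 0.48, BH-adjusted p = 0.0919). NSDHL, a C4-demethylating dehydrogenase, was at 75.4, 50.2 and 98.7 FPKM in DMSO and 151, 170 and 238 in LY10. It had the smallest p of the members (log2 fold change 1.34, SE 0.30, BH-adjusted p = 0.0786), again without overlap. DHCR7, which performs the last reduction to cholesterol in one branch, was at 2.58, 1.62 and 9.11 FPKM in DMSO and 11.7, 6.22 and 8.43 in LY10. Here DMSO_3 was second among the 6 embryos, and the log2 fold change was 1.33 (SE 0.58, BH-adjusted p = 0.211). In ARS-UCD2.0 coordinates, FDFT1 spans chr8:7591013-7617467 on the minus strand and NSDHL spans chrX:35133671-35159670 on the plus strand. Embryo sex was not taken into account here, and its part in the values of the X-linked NSDHL was not tested.

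The remaining sterol enzymes were not called. Their log2 fold changes ran from 0.22 (LBR) through 0.75 for SQLE, the squalene epoxidase, 0.76 for LSS, the lanosterol synthase, and 0.98 for CYP51A1, the C14-demethylase, to 1.04 for MSMO1. Between these lay EBP, the sterol isomerase, at 0.45, SC5D, the C5-desaturase, at 0.46 and HSD17B7, the C3-ketosteroid reductase of the pathway, at 0.83. TM7SF2, at 10 reads or fewer in 5 of the 6 embryos, was at -0.38 with an SE of 1.53.

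None of the 5 control genes was called. SREBF2 was at 1.14, 0.719 and 2.33 FPKM in DMSO and 3.62, 2.07 and 2.46 in LY10, with a log2 fold change of 1.08 (SE 0.48, BH-adjusted p = 0.219). INSIG1, itself a target of SREBP and a brake on it, was at 7.86, 4.50 and 23.1 FPKM in DMSO and 24.4, 14.6 and 23.4 in LY10, a log2 fold change of 1.11 (SE 0.54, BH-adjusted p = 0.257). Both genes showed the same division of the DMSO embryos as the enzymes. INSIG2, the other isoform, was at 16.7, 20.4 and 21.7 FPKM in DMSO and 12.3, 12.6 and 15.1 in LY10. The LY10 values were all below the DMSO values, at a log2 fold change of -0.56 (SE 0.23, BH-adjusted p = 0.199), which is short of the fold change needed for a call. SCAP was at 1.10, 1.18 and 1.13 FPKM in DMSO and 2.03, 1.56 and 1.23 in LY10, without overlap (log2 fold change 0.46, SE 0.38, BH-adjusted p = 0.49). SREBF1 was at 1.44, 1.19 and 1.5 FPKM in DMSO and 1.86, 0.615 and 1.34 in LY10 (log2 fold change -0.24, SE 0.47, BH-adjusted p = 0.789).

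Uptake and export genes had a median log2 fold change of 0.13 and no call. NPC1, which passes cholesterol out of late endosomes, had the largest difference, 0.66 (SE 0.29, BH-adjusted p = 0.218). Its luminal partner NPC2 was at -0.25, STARD4, a cytosolic sterol carrier, at 0.23, and ABCA1, the exporter of cholesterol to lipoprotein, at 0.03.

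**Figure D2:**
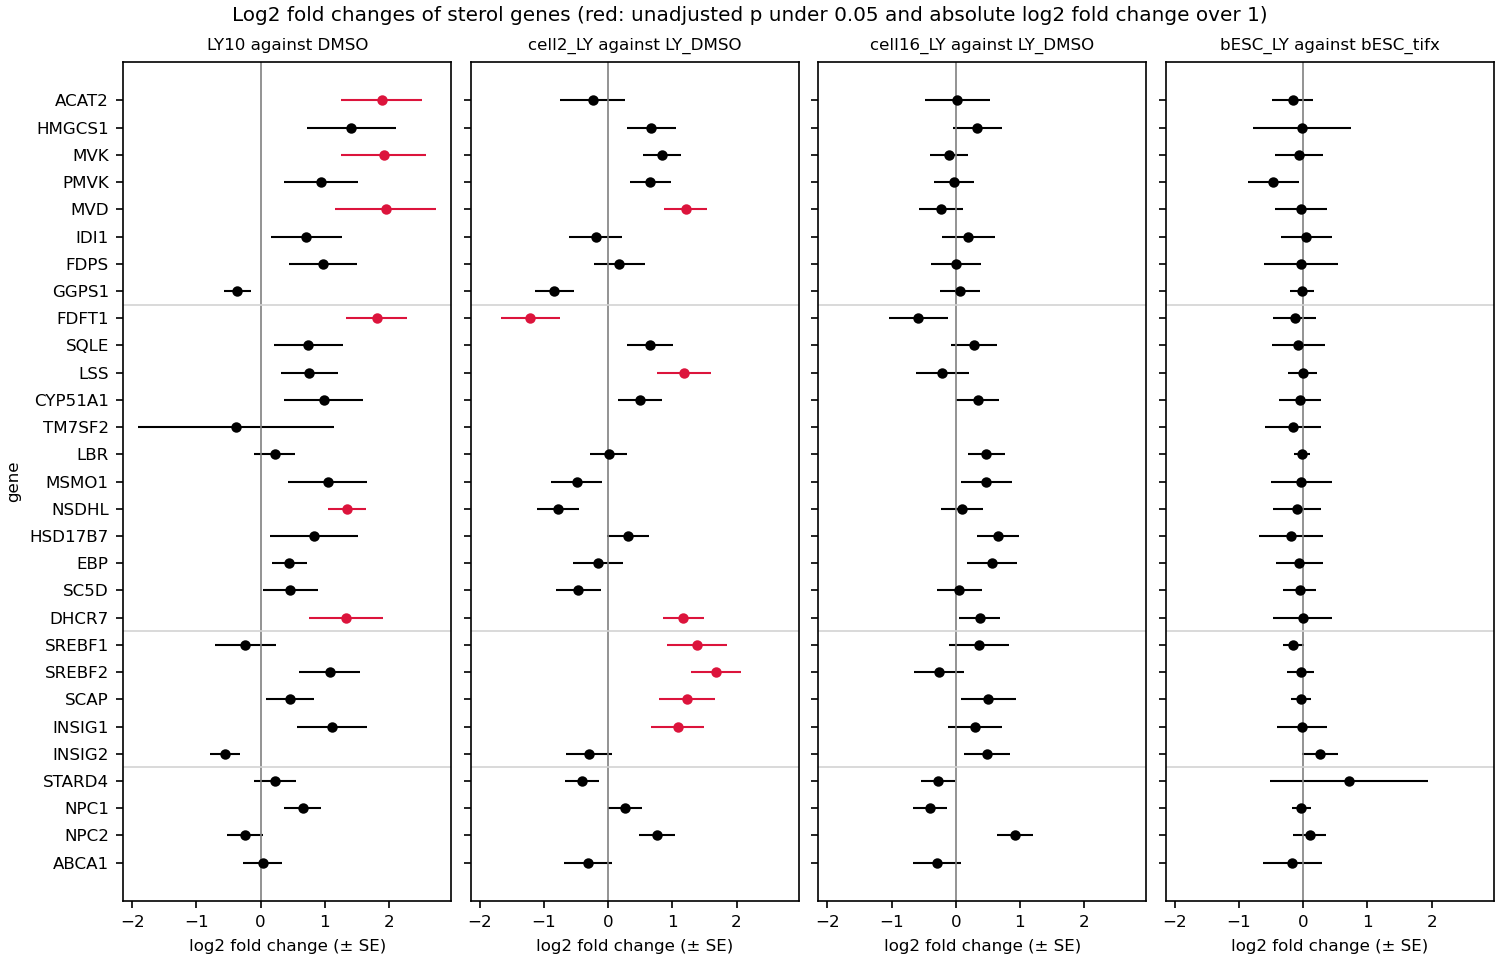
Log2 fold change of normalized counts for each gene (rows) in 4 LY comparisons (panels), with bars of 1 SE from limma and called genes in red. Most enzymes lie right of 0 in LY10, SREBP control genes stand out in cell2_LY, and the 29 genes sit close to 0 in bESCs apart from STARD4 and PMVK.

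The DMSO embryos did not form one group for these genes. DMSO_3 was above both other DMSO embryos in 19 of 20 enzymes, within or above the LY10 range in 18 and the highest of all 6 in 8, while DMSO_1 and DMSO_2 were both below every LY10 embryo in 16 enzymes. The same counts were not made over all genes, so these do not set the enzymes apart. The median deviation of the 20 enzymes from the table mean was -0.78, -1.65 and 0.71 (log2) in DMSO and 0.79, 0.15 and 0.75 in LY10. The range between the 3 DMSO embryos had a median of 2.39 (log2) over the enzymes and 0.98 over all genes. Without DMSO_3, 18 members were called higher, 16 of them enzymes, against 9.46% of all genes called higher and 14.7% lower. In that fit 12 members passed BH adjustment, as did 13.8% of all genes, with FDFT1 at a log2 fold change of 2.43 (BH-adjusted p = 0.00612). DMSO_3 was singled out here after its values were seen. Leaving out LY10_1 instead gave 2 members called higher, FDFT1 and NSDHL, beside 4.89% of all genes. Over the 16 other settings and left-out libraries tried, FDFT1 and NSDHL kept the call in each, ACAT2 and MVK lost it in 2 (with no filter and without LY10_1) and MVD and DHCR7 in 6, among them without DMSO_1, DMSO_2, LY10_1 or LY10_3. With 1 library left out, the log2 fold change of DHCR7 lay between 0.81 and 2.05, that of MVD between 1.2 and 2.92, that of ACAT2 between 1.16 and 2.62 and that of MVK between 1.18 and 2.65.

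Trophectoderm marker sums differed between these embryos partly as the enzymes did. They came to 3108, 2571 and 6452 FPKM in DMSO and 9539, 3724 and 5144 in LY10, so that DMSO_3 and LY10_1 were high in both marker and enzyme levels and LY10_2 was the lowest of its group in both. Of the 7 tested trophectoderm markers, 4 were above 0 and 0 were called. Epiblast markers summed to 275, 215 and 175 FPKM in DMSO and 497, 726 and 359 in LY10, with 1 of 5 tested called higher. Of 6 tested hypoblast markers 2 were called higher, although their sums, between 76.4 and 123 FPKM in DMSO and between 77.3 and 125 in LY10, overlapped. Fibroblast markers summed to 24.4, 23.9 and 90.6 FPKM in DMSO and 6.10, 8.56 and 11.7 in LY10, with 2 of 5 tested called lower. The part of these cell types in the result for the sterol genes was not tested.

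Neighbouring pathways gave the following counts. Among 10 genes of the isoprenoid branch, which use the same farnesyl and geranylgeranyl units, 0 were called and the median was 0.37. PDSS1, of ubiquinone synthesis, was at a log2 fold change of 0.94 (SE 0.33, BH-adjusted p = 0.151). Of 10 sterol sensing genes 0 were called (median -0.003). Of 10 tested sterol transport genes 1 was called lower, NCEH1, a cholesteryl ester hydrolase, at -1.12 (SE 0.40, BH-adjusted p = 0.154). Of 14 fatty acid synthesis genes 1 was called lower, ME1, malic enzyme, at -2.68 (SE 0.73, BH-adjusted p = 0.0959), while the median of that list was 0.62.

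In cell2_LY against LY_DMSO, the other experiment with LY from the 2-cell stage, control genes were called as well as enzymes. Of 28 members tested, 7 were called higher, and 4 of them were SREBF2, SREBF1, SCAP and INSIG1; the enzymes MVD, LSS and DHCR7 were the others. FDFT1 was called lower. TM7SF2 did not reach the mean count needed for the test, with between 2 and 19 reads per library. Among all 14529 tested genes 8.71% were called higher and 8.34% lower, and BH adjustment kept 0.0138% (2 genes), with 0 members among them and 12 members at an unadjusted p under 0.05. The median over the members was 0.29, against 0.003 for all genes, and it was 1.23 over the 5 control genes, 0.42 over the mevalonate steps and 0.01 over the sterol steps.

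SREBF2 was at 2.26 and 1.56 FPKM in LY_DMSO and 7.46 and 4.93 in cell2_LY. Its log2 fold change was 1.68 (SE 0.39, BH-adjusted p = 0.0782), the smallest p of the members here. The gene lies at chr5:112832407-112890177 on the plus strand of ARS-UCD2.0. SREBF1 was at 2.26 and 1.07 FPKM in LY_DMSO and 5.22 and 3.23 in cell2_LY (log2 fold change 1.39, SE 0.47, BH-adjusted p = 0.128). SCAP was at 1.88 and 1.2 FPKM in LY_DMSO and 4.60 and 2.72 in cell2_LY (log2 fold change 1.23, SE 0.43, BH-adjusted p = 0.138). INSIG1 was at 14.1 and 9.63 FPKM in LY_DMSO and 17.3 and 35.4 in cell2_LY (log2 fold change 1.08, SE 0.42, BH-adjusted p = 0.163). In all 4 genes both treated embryos were above both vehicle embryos, which the call itself favours. INSIG2 was at 15.6 and 17.6 FPKM in LY_DMSO and 9.55 and 19.0 in cell2_LY, where the groups overlapped (log2 fold change -0.30, SE 0.36, BH-adjusted p = 0.632).

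**Figure D3:**
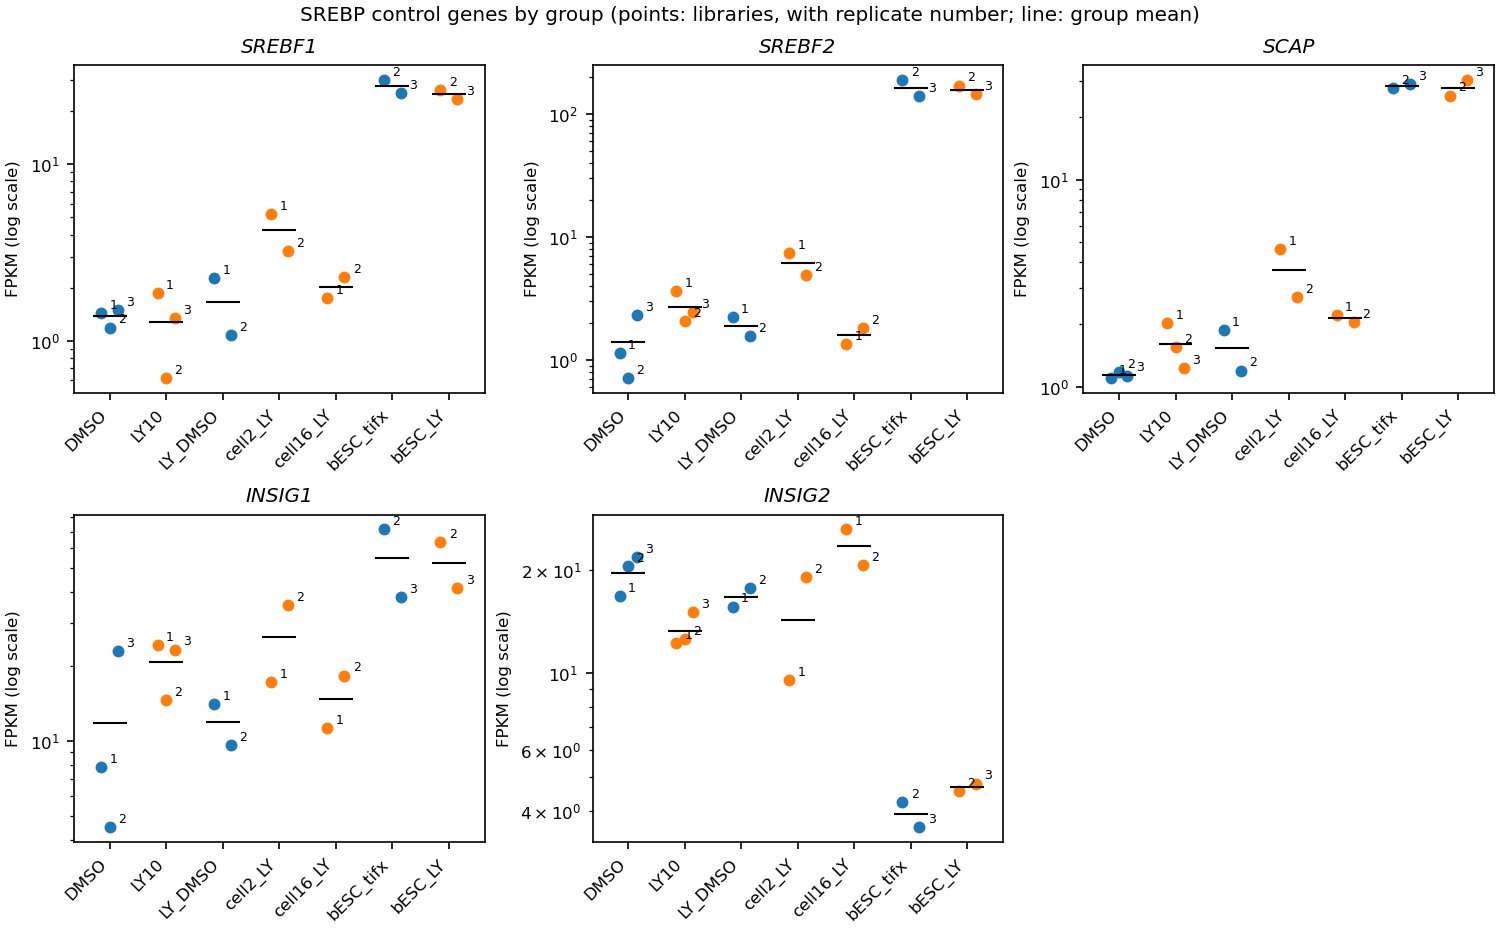
FPKM on a log axis for the 5 SREBP control genes, with a point per library, the replicate number beside it and a line at the group mean. The 2 cell2_LY embryos lie above the LY_DMSO embryos in SREBF1, SREBF2, SCAP and INSIG1, the LY10 embryos lie below the DMSO embryos in INSIG2, and bESCs hold the highest SREBF2.

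The called enzymes were MVD, LSS and DHCR7. MVD was at 10.9 and 12.7 FPKM in LY_DMSO and 32.3 and 22.8 in cell2_LY (log2 fold change 1.21, SE 0.34, BH-adjusted p = 0.0988). LSS was at 3.13 and 2.35 FPKM in LY_DMSO and 5.51 and 6.91 in cell2_LY (log2 fold change 1.18, SE 0.41, BH-adjusted p = 0.139). DHCR7 was at 5.32 and 4.28 FPKM in LY_DMSO and 10.7 and 10.9 in cell2_LY (log2 fold change 1.17, SE 0.32, BH-adjusted p = 0.0948). These 3 enzymes had no overlap between the groups, which adds nothing to their calls. FDFT1 was at 250 and 250 FPKM in LY_DMSO and 62.6 and 186 in cell2_LY, a log2 fold change of -1.21 (SE 0.46, BH-adjusted p = 0.160). The treated embryos were both below the vehicle embryos but lay far apart, and without cell2_LY_1 the value for FDFT1 was -0.43. Over 17 other settings and left-out libraries, SREBF2 and DHCR7 kept the call in each, MVD lost it in 1, SCAP and INSIG1 in 3, LSS and SREBF1 in 4 and FDFT1 in 6. Without LY_DMSO_2 the called genes LSS, SREBF1, SCAP, INSIG1 and FDFT1 all lost it, without cell2_LY_1 so did MVD, SREBF1, SCAP and FDFT1, without cell2_LY_2 LSS and INSIG1, and without LY_DMSO_1 FDFT1. The 17 include median-of-ratios size factors, which gave the same median and shares of all genes as the main fit. They also include leaving out a cell16_LY library, which alters the spread and not the fold change.

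Members that reached an unadjusted p under 0.05 without the fold change for a call were MVK at 0.84 and NPC2 at 0.76, both higher, and GGPS1 at -0.84 and NSDHL at -0.78, both lower. The other members ran from -0.49 (MSMO1) to 0.67 (HMGCS1). FDFT1 and NSDHL, the 2 members without overlap upward among the called genes of LY10, thus lay below their vehicle embryos here. These are different embryos with different vehicle groups, and the difference between the experiments was not tested, since the tables were normalized separately.

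**Figure D4:**
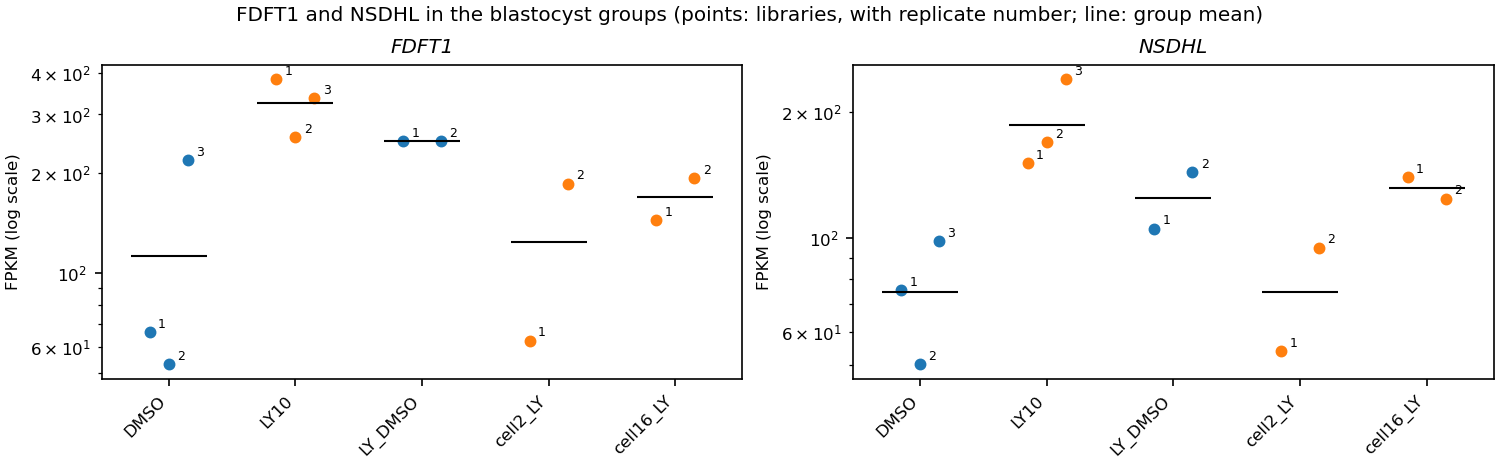
FPKM of FDFT1 and NSDHL on a log axis in the 5 blastocyst groups, with a point per embryo, the replicate number beside it and a line at the group mean. LY10 lies above DMSO in both genes, while cell2_LY lies below LY_DMSO in both.

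The authors divided cell2_LY_1 by a library size 1.23 times its reads on genes, more than in any other library. Median-of-ratios size factors gave the same median and shares of all genes as the authors' library sizes did here. With reads on genes as the library size, a choice made after seeing the data, the median over all genes was 0.24 and that over the members 0.52, and 12.65% of all genes were called higher and 4.63% lower. SREBF2 was then at 1.91, FDFT1 at -0.98, and 8 members were called higher and 0 lower. All 7 tested trophectoderm markers were above 0 in cell2_LY and 2 were called higher, GATA2 at a log2 fold change of 1.99 (SE 0.34) and CDX2 at 2.78 (SE 0.67). Their sums were 4764 and 3956 FPKM in LY_DMSO and 5008 and 7437 in cell2_LY. Of 5 tested epiblast markers 0 were called, of 6 tested hypoblast markers 1 was called lower, PDGFRA, and of 5 tested fibroblast markers 0 were called. The part of trophectoderm content in the sterol gene result was not tested.

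Fatty acid synthesis genes had 6 of 14 called higher and a median of 0.73, beside 8.71% of all genes called higher and 8.34% lower. Any link of these calls with SREBF1 was not tested. FADS2, the desaturase of polyunsaturated fatty acids, was at 2.66 (SE 0.40, BH-adjusted p = 0.0711), and its neighbour in function FADS1 was at 1.55 (SE 0.36, BH-adjusted p = 0.0782). The isoprenoid branch had 1 of 10 called lower, ZMPSTE24, a prenylated protein protease, at -1.14 (SE 0.29). Sterol sensing genes had 0 of 10 called. Sterol transport had 2 of 10 tested called lower, SOAT1, which esterifies cholesterol, at -1.02 (SE 0.31) and LIPA, the lysosomal acid lipase, at -1.35 (SE 0.44).

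In cell16_LY against LY_DMSO, where LY began at the 16-cell stage, 0 of 28 tested members were called in either direction, beside 3.25% of all genes called higher and 1.97% lower and 0% passed BH adjustment. The median over the members was 0.15, with 19 above 0. The sole member with an unadjusted p under 0.05 in limma was NPC2, the luminal sterol carrier of lysosomes, at 30.9 and 38.3 FPKM in LY_DMSO and 77.2 and 54.8 in cell16_LY. Its log2 fold change was 0.92 (SE 0.28, BH-adjusted p = 0.552).

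The control genes had log2 fold changes between -0.26 and 0.51 against the LY_DMSO levels above. SREBF2 was at 1.35 and 1.83 FPKM (log2 fold change -0.26, SE 0.39, BH-adjusted p = 0.906) and SREBF1 at 1.75 and 2.29 (0.36, SE 0.47, BH-adjusted p = 0.889). INSIG1 was at 11.3 and 18.4 FPKM (0.30, SE 0.42, BH-adjusted p = 0.894). SCAP, at 2.22 and 2.05 FPKM (0.51, SE 0.43, BH-adjusted p = 0.819), and INSIG2, at 26.2 and 20.6 (0.48, SE 0.36, BH-adjusted p = 0.789), were above both vehicle embryos. The enzymes ran from -0.58 (FDFT1, at 144 and 193 FPKM) to 0.66 (HSD17B7). Uptake and export genes other than NPC2 were between -0.40 (NPC1) and -0.28 (STARD4).

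The neighbouring lists gave few calls here. Fatty acid synthesis had 2 of 14 called higher, ME1 at 4.98 (SE 0.85) and ACSS2, which makes acetyl-CoA from acetate, at 3.53 (SE 1.00). The isoprenoid, sterol sensing and sterol transport lists had 0 called. Trophectoderm, epiblast, hypoblast and fibroblast markers likewise had 0 called, and the trophectoderm sums of 5020 and 5028 FPKM were above those of LY_DMSO.

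In cell16_LY against cell2_LY, the later against the earlier start, 3 of 28 members were called lower and 0 higher, beside 5.77% of all genes lower and 5.58% higher, with 0% passing BH adjustment. The 3 were SREBF2, MVD and LSS. SREBF2 was at 1.35 and 1.83 FPKM in cell16_LY and 7.46 and 4.93 in cell2_LY, a log2 fold change of -1.94 (SE 0.39, BH-adjusted p = 0.191). MVD was at 8.11 and 12.5 FPKM in cell16_LY and 32.3 and 22.8 in cell2_LY (-1.43, SE 0.34, BH-adjusted p = 0.191). LSS was at 1.60 and 3.42 FPKM in cell16_LY and 5.51 and 6.91 in cell2_LY (-1.39, SE 0.41, BH-adjusted p = 0.193). The groups did not overlap in any of the 3, which adds nothing to their calls. SREBF2 and MVD kept the call in 17 of 17 other settings and left-out libraries, and LSS lost it without cell2_LY_2 (-1.23) and without cell16_LY_1 (-0.85). Not all of the 17 could move a call, since median-of-ratios size factors matched the main fit over all genes. Leaving out an LY_DMSO library likewise left the fold changes as they were.

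Of the other control genes, whose levels in both groups are given above, SREBF1 was at -1.03 (SE 0.47, BH-adjusted p = 0.291), INSIG1 at -0.78 (SE 0.42, BH-adjusted p = 0.352), SCAP at -0.72 (SE 0.43, BH-adjusted p = 0.394) and INSIG2 at 0.79 (SE 0.36, BH-adjusted p = 0.292). A further 6 members had an unadjusted p under 0.05 without the fold change for a call. MVK, DHCR7 and NPC1 were lower in cell16_LY, at -0.94, -0.80 and -0.67, and MSMO1, GGPS1 and NSDHL were higher, at 0.96, 0.91 and 0.88. The median over the 28 members was -0.07, with 14 above 0 and 14 below. With reads on genes as the library size, 6 members were called lower, beside 8.66% of all genes called lower and 2.89% higher, and the medians were -0.28 over the members and -0.18 over all genes. This comparison and that of cell2_LY with LY_DMSO share the cell2_LY embryos, and trophectoderm markers were below 0 in 7 of 7 tested genes, with 2 called lower. The part of trophectoderm content was not tested here either.

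Among neighbouring lists, fatty acid synthesis had 4 of 14 called lower, with FADS2 at -2.05 (SE 0.40) and FASN, the fatty acid synthase, at -1.58 (SE 0.45). The isoprenoid branch had 2 of 10 called higher, ZMPSTE24 at 1.5 (SE 0.29) and FNTA, a subunit of the prenyl transferases, at 1.09 (SE 0.31). Sterol transport had 1 higher and 1 lower of 10 tested, LIPA at 1.51 (SE 0.44) and STARD3 at -1.39 (SE 0.48), and sterol sensing had 0 of 10 called.

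In bESC_LY against bESC_tifx, 0 of 29 members were called and 0 had an unadjusted p under 0.05 in limma, where 0.0375% of all 16012 tested genes were called higher and the same share, 0.0375%, lower, with 0% passing BH adjustment. The median over the members was -0.04 and that over all genes -0.007. With 25 of 29 members below 0, the differences were small, and 27 members lay between -0.19 and 0.26. The other members were PMVK, phosphomevalonate kinase, at -0.47 (SE 0.40), and STARD4 at 0.71 (SE 1.23), which had only between 4 and 40 reads.

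The control genes in bESCs had larger ranges between the numbers than between the treatments in SREBF2 and INSIG1. SREBF2 was at 189 and 139 FPKM in bESC_tifx and 171 and 145 in bESC_LY, for numbers 2 and 3 in that order (log2 fold change -0.04, SE 0.21). SREBF1 was at 30.1 and 25.5 FPKM in bESC_tifx and 26.5 and 23.4 in bESC_LY (-0.15, SE 0.16). SCAP was at 27.8 and 29.1 FPKM in bESC_tifx and 25.5 and 30.3 in bESC_LY (-0.03, SE 0.15). INSIG1 was at 71.4 and 38.0 FPKM in bESC_tifx and 63.7 and 41.3 in bESC_LY (-0.02, SE 0.39). INSIG2 alone of the 5 had no overlap, at 4.24 and 3.58 FPKM in bESC_tifx and 4.55 and 4.79 in bESC_LY (0.26, SE 0.28). The lists of the isoprenoid branch, sterol sensing, sterol transport, fatty acid synthesis and the 5 cell type lists had 0 called.

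The number of the bESC libraries went with larger differences than LY did. Between numbers 2 and 3 the members had a median log2 difference of 0.73 in bESC_tifx and 0.55 in bESC_LY, where all genes had 0.003 and 0.001. The difference was above 0 for 19 of 20 enzymes in bESC_tifx and 18 of 20 in bESC_LY. HMGCS1 was at 515 and 171 FPKM in bESC_tifx and 515 and 167 in bESC_LY, for numbers 2 and 3, so that number 2 was 3.01-fold and 3.09-fold number 3. For FDPS the folds were 2.38 and 2.21, for MSMO1 1.90 and 2.01, and for HSD17B7 1.97 and 2.05. ABCA1, the exporter, was lower in number 2, at 0.56-fold in bESC_tifx and 0.51-fold in bESC_LY. LBR and NPC1 were near 1-fold. There is 1 library per number and treatment, so these are values with no test, and trophectoderm marker sums also differed by number, at 296 and 113 FPKM in bESC_tifx and 256 and 98.9 in bESC_LY, as did cumulus list sums, at 24.6 and 68.8 and at 21.8 and 62.2.

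**Figure D5:**
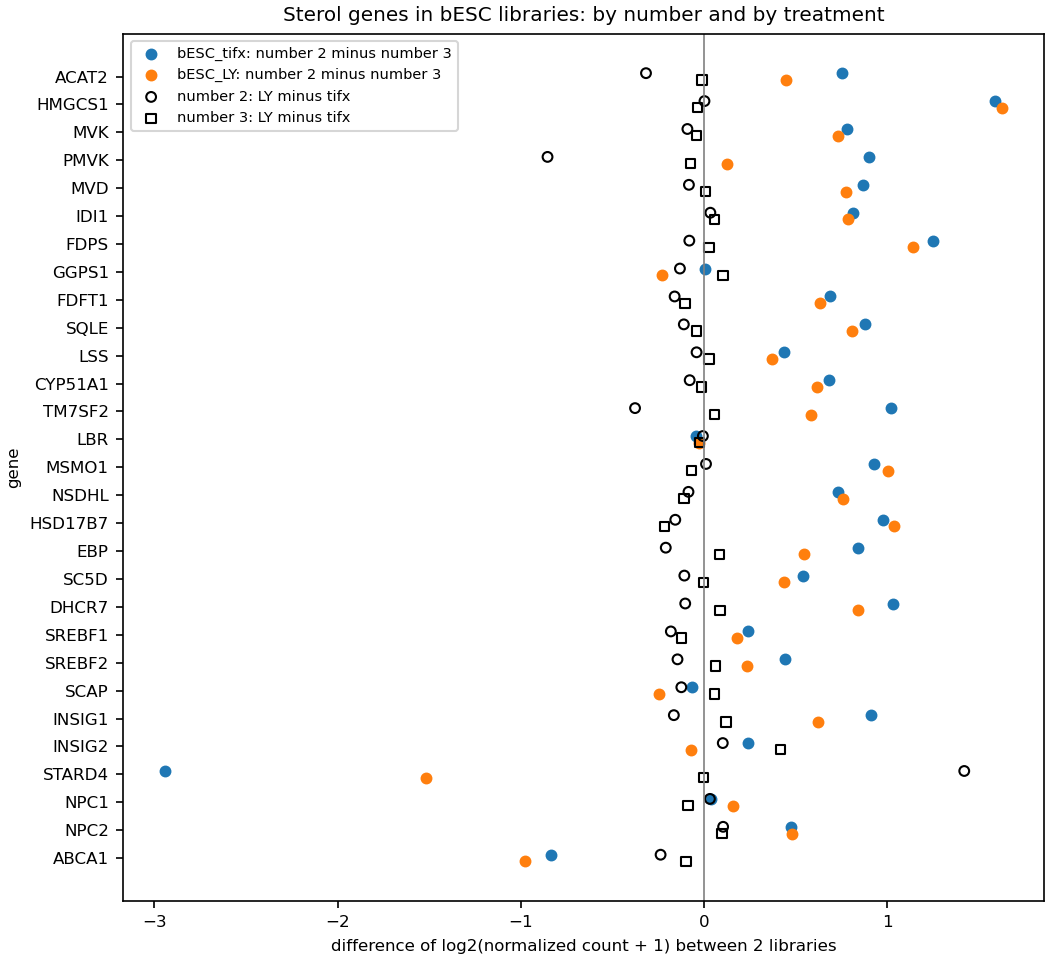
Difference of log2(normalized count + 1) between single bESC libraries for each gene, with filled points for number 2 minus number 3 within a treatment and open points for LY minus tifx within a number. The filled points lie to the right of 0 for most enzymes, while the open points gather around 0.

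Blastocysts and bESCs were set side by side as a description. The libraries were made with different kits, and the gene models differ in length for many members, so no test was made. SREBF2, with a model of 5194 bases in all tables, had between 139 and 189 FPKM in bESCs and at most 7.46 in any blastocyst. All 4 bESC libraries were above all 12 blastocysts in 9 members, which were SREBF2, SREBF1, SCAP, INSIG1, MVD, SQLE, LSS, LBR and DHCR7. They were below all blastocysts in 4, GGPS1, EBP, INSIG2 and STARD4, and overlapped in 16. STARD4 has a model of 796 bases in the bESC table and 5178 in the blastocyst tables, which bears on its level. Among the 11 members whose models differ by 10% or less in length, 3 were higher in bESCs, 1 was lower and 7 overlapped. The share of all genes that separated in this way was not computed, so none of these counts sets the members apart. INSIG1 was above INSIG2 in 4 of 4 bESC libraries and in 6 of 12 blastocysts, with INSIG1 between 4.50 and 35.4 FPKM and INSIG2 between 9.55 and 26.2 in blastocysts, and between 38.0 and 71.4 and between 3.58 and 4.79 in bESCs.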

How the data were processed

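RNA was sequenced from 12 single blastocysts by SMART-Seq and from 4 bESC libraries. The authors trimmed reads with fastp, and the processing notes of the submitters name HISAT2 2.0.5, StringTie 1.3.3b, featureCounts 1.5.0-p3 and DESeq2 1.20.0. For alignment, STAR as well as HISAT2 is named in the methods. How reads that match several genes were counted is not given in the sources used here. The authors deposited FPKM values and gene lengths in 3 tables, normalized separately, so tests stayed within a table. Their fold changes and p-values were not used. The gene positions of both blastocyst tables match RefSeq on ARS-UCD2.0. The bESC table has Ensembl gene models.

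FPKM multiplied by gene length gave whole reads for 100% of the values, within 0.02 reads, and with them each library size behind the FPKM. Normalized counts are reads over that size times its geometric mean in the table (10651692, 15246235 and 30547774). Genes with a mean of at least 10 were fitted with limma 3.58.1 in R 4.3.3 (lmFit, eBayes with a trend) on log2(normalized count + 1), which understates changes of low genes. For the second blastocyst table, 1 fit held all 3 groups. Because the deposited values are FPKM, limma on a log scale was chosen in place of a count test. The recovered whole reads would also have allowed a count test, and none was run. Scripts were tested on simulated data. Python 3.11.15, numpy 2.4.6, pandas 2.3.3 and matplotlib 3.10.9 served for tables and plots.

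The members, the gene lists and the tests were chosen with earlier results of these data known, and a pattern in them is not independent support. A member is given in every library where it was called or is one of the 5 control genes, and list genes are named for the smallest p. INSIG1 against INSIG2, the bESC numbers and the genes FDPS, MSMO1, HSD17B7 and ABCA1 there were singled out after their values were seen. Alternatives were no filter, a minimum mean of 50, pseudocounts of 0.5 and 5, log2(FPKM + 1) for genes averaging 0.5 FPKM or more, median-of-ratios size factors, quantile normalization, voom weights, the replicate number as a block, a fit of 2 groups alone, and leaving out each library in turn. Reads on genes as library size was added after seeing the data. Limits of 3 reads cover counting error only, as the libraries carry no molecular identifiers that the sources used here describe. Promoter sequences and motifs were not analysed here.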

Additional observations from a re-analysis of the deposited data

Results flagged for a closer look

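A total of 4 members had every treated library on one side of its controls in one LY comparison and on the other side in another, and none of these differences between comparisons was tested. How many of all genes did so was not counted, so the 4 members are not shown to be unusual. FDFT1 had a log2 fold change of 1.81 in LY10 against DMSO and of -1.21 in cell2_LY against LY_DMSO, although both groups of embryos had LY from the 2-cell stage. NSDHL went the same way, at 1.34 in LY10 and -0.78 in cell2_LY. In cell16_LY against LY_DMSO, FDFT1 was at -0.58. NPC1 was at 0.26 in cell2_LY and -0.40 in cell16_LY, which share their vehicle embryos. INSIG2 was at -0.56 in LY10, 0.48 in cell16_LY and 0.26 in bESC_LY. Of these 10 values, those of FDFT1 in LY10 and cell2_LY and that of NSDHL in LY10 were called.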

How the results depend on the processing

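Of 846 values under other settings, 754 were unchanged, 39 lost the call, 14 gained it, 23 moved and 16 changed sign. Unchanged means the same direction and side of the threshold for a gene, a median within its spread, or an equal or similar count. Not all values were free to change, since median-of-ratios size factors matched the main fit in the second blastocyst table. Of the 846, 603 were for single genes, 540 of them unchanged. The 603 include control genes not called in the main fit, which counted as unchanged when they stayed uncalled with the same sign. In LY10 no filter gave 2 members called higher, beside 2.16% of the 38959 genes then fitted, against 6.2% of all genes in the main fit. In cell2_LY no filter and log2(FPKM + 1) each gave 4 higher, beside 3.89% and 5.46% of all genes, against 8.71% in the main fit. There, no filter, quantile normalization and reads on genes as library size gave 0 lower, beside 2.98%, 7.43% and 4.63% of all genes. In cell16_LY against cell2_LY the median was 0.020 with no filter, and 6 members were lower with reads on genes as library size, beside 8.66% of all genes. Quantile normalization moved the median of all genes in LY10 to 0.07 and that of the members to 0.805.

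Leaving out 1 library gave between 2 and 18 members higher in LY10 (2 without LY10_1, 18 without DMSO_3, where 4.89% and 9.46% of all genes were called higher), with SREBF1 between -0.58 and 0.21. It gave 3 to 8 higher and 0 to 5 lower in cell2_LY (3 higher without LY_DMSO_2, beside 6.92% of all genes, and 5 lower without cell2_LY_2, beside 12.9%), a median between 0.10 and 0.63 and INSIG2 between -0.80 and 0.19. In cell16_LY against LY_DMSO it gave a median between -0.036 and 0.39, SREBF2 between -0.52 and 0.0061, SREBF1 between -0.18 and 0.89 and INSIG1 between -0.049 and 0.65. In cell16_LY against cell2_LY it gave a median between -0.50 and 0.25, so its sign was not stable. In bESCs the median lay between -0.46 and 0.29, SREBF2 between -0.26 and 0.18, INSIG1 between -0.48 and 0.43 and SCAP between -0.16 and 0.090. The cause was not tested. A lone library left in a group was taken to vary like the others.

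The labels do not say that a replicate number pairs samples. With the number as a block, 9 members were called higher in LY10, beside 6.21% of all genes. SREBF2 at 1.08 and INSIG1 at 1.11 were among the 9. In cell2_LY the block gave 7 higher and 1 lower, beside 8.5% and 8.6% of all genes. For cell16_LY it gave 0 against LY_DMSO, beside 3.39% higher and 2.05% lower, and 3 lower against cell2_LY, beside 5.52%. In bESCs 0 members were called, beside 0.43% of all genes higher and 0.48% lower, with 0.72% passing BH adjustment. Same-numbered bESC libraries deviated together from their group means (r = 0.789, a hint from the data). With 2 libraries per group, both same-numbered pairs give this 1 value by construction. In LY10 and DMSO the libraries did not each correlate best with their own number. In bESCs the median was -0.037 with the block.

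Depth limits TM7SF2 and, in bESCs, STARD4.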

Other observations

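The ratio of INSIG1 to INSIG2 FPKM, chosen after values were seen, was 0.47, 0.22 and 1.06 in DMSO and 1.99, 1.16 and 1.55 in LY10. It was 0.90 and 0.55 in LY_DMSO, 1.81 and 1.86 in cell2_LY and 0.43 and 0.89 in cell16_LY. Both groups with LY from the 2-cell stage had all embryos above their vehicle embryos, and the cell16_LY embryos overlapped theirs. In bESCs the ratio was 16.9 and 10.6 in bESC_tifx and 14.0 and 8.62 in bESC_LY, for numbers 2 and 3. These are values with no test, and the bESC gene models of INSIG1 and INSIG2 differ in length from those of the blastocyst tables.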
